A study of Rattus norvegicus with 4 samples.

Results

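Senescent rat mesenchymal stem cells given trichostatin A (TSA) and untreated senescent cells were set together against senescent cells given TSA plus phenamil and untreated young cells, with 1 library for each of the 4 conditions. Of the 3 ways to divide 4 libraries into pairs, this one was chosen from the measured values. Over the 3265 genes with a mean of at least 500 scaled counts, it held 51.2% of the variation between libraries in log2 expression. Setting TSA and TSA + phenamil against both controls held 33.8%, and setting TSA and the young control against the senescent control and TSA + phenamil held 15%. A gene was taken as separated when both libraries of one pair lay beyond both libraries of the other. Of 34034 genes listed, 12228 had at least 40 counts over the 4 libraries, and 5000 of these were separated, which is 40.9% of the genes compared. Any gene without ties is separated in exactly 1 of the 3 pairings, so libraries in random order would separate 1 gene in 3. Of the 5000, 2528 were higher in the TSA and senescent control libraries (20.7% of genes compared) and 2472 were lower there (20.2%). Since the same values chose the pairing and no condition had a second library, these counts and all values below describe 4 libraries, and no test was made on them.

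All cells came from rat femurs, were kept in osteogenic induction medium and were taken at day 1, after 24 h of treatment, in 1 batch per the labels. The conditions were senescent cells given TSA, senescent cells given vehicle alone (the senescent control), senescent cells given TSA and phenamil, and young cells given vehicle alone (the young control). The sources used here do not give how the cells became senescent, the doses, or the strain and age of the rats, no library held phenamil alone, and the series' design text names benzyl ether where the labels name phenamil. The pairing therefore joins libraries that differ in treatment, and age and treatment cannot be told apart in it.

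Mesenchymal stem cells of the bone marrow can become bone, cartilage or fat cells, and in osteogenic medium they build a collagen matrix before it mineralises. Senescent cells have left the cell cycle for good, commonly keep high levels of cell cycle inhibitors, and are known for changes in secretion and metabolism. TSA blocks histone deacetylases and so raises histone acetylation. Phenamil, a derivative of amiloride that blocks epithelial sodium channels, is known from mouse mesenchymal cells to raise the pseudokinase gene Trib3 and to enhance bone morphogenetic protein (BMP) signalling.

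Total counts ran from 9873894 to 11024227 per library. Mitochondrially encoded messenger RNAs took 6.02% of counts in TSA, 5.66% in the senescent control, 6.85% in TSA + phenamil and 5.47% in the young control, so this share did not divide the libraries by pair. All 14 markers of mesenchymal stromal cells had enough counts to be compared, and their summed level was 8848 to 9890 CPM (counts scaled to a common library size with TMM factors). Markers of blood cells summed to 6.04 to 13.0 CPM over 17 genes, with Adgre1, Itgam, Lyz2, Aif1 and Hbb at 0 counts in all 4 libraries. Endothelial markers summed to 3.61 to 4.76 CPM over 11 genes, with Pecam1, Vwf, Emcn, Cldn5 and Plvap at 0. Markers of skeletal muscle summed to 46.9 to 62.0 CPM over 11 genes and those of osteoclasts to 48.4 to 57.6 CPM over 8, with Calcr and Ocstamp at 0. Neuronal and glial markers summed to 508 CPM in TSA and 455 CPM in the senescent control, against 387 CPM in TSA + phenamil and 392 CPM in the young control over 12 genes, with Sox10 at 0. Most of that sum was S100b, a calcium-binding protein gene also expressed by cartilage and fat cells, at 340 CPM in both TSA and the senescent control, 271 CPM in TSA + phenamil and 289 CPM in the young control.

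Counting error was applied next. A gene was called higher or lower when all 4 ratios of a library of the first pair over one of the second had exact 95% counting intervals on the same side of no change. By this rule 866 genes were called, 7.08% of those compared: 491 were higher in TSA and the senescent control (4.02%) and 375 were lower (3.07%). The share depended on counts: it was 1.75% of genes with 40 to under 200 counts, 3.2% with 200 to under 1000, 10.8% with 1000 to under 10000 and 28.4% at 10000 or more. By direction, 1.58% were higher and 1.62% lower at 200 to under 1000 counts, 6.15% and 4.66% at 1000 to under 10000, and 18.3% and 10.1% at 10000 or more, so the count of a gene list is set below beside the share at its median total counts. Median totals were 3698 counts for the higher and 2660 counts for the lower genes, against 769 counts for all genes compared. Intervals cover counting error alone, so they do not hold the spread between cultures, which was not measured.

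The separations were small. The ratio of the nearest libraries of the pairs (the gap) had a median of 1.17 among the higher genes and 0.835 among the lower genes. It lay beyond 1.5-fold in 99 of the 866 genes and beyond 2-fold in 30. In 630 genes (72.7%) the gap was larger than both differences within the pairs. In 451 genes, 244 higher and 207 lower, neither within-pair ratio had an interval that excluded no change. Where the pairs were spread, TSA was mostly the extreme library of its pair. Among the 491 higher genes, TSA was the highest and the young control the lowest in 230 (46.8%), and TSA was highest with TSA + phenamil lowest in 118 (24.0%). The senescent control was highest in the other 143, over TSA + phenamil in 78 and over the young control in 65. Among the 375 lower genes, TSA was the lowest and the young control the highest in 175 (46.7%), and TSA was lowest with TSA + phenamil highest in 114 (30.4%).

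The log2 ratio of TSA over TSA + phenamil and that of the senescent control over the young control share no library. Across the 3265 abundant genes they had Pearson's r of 0.558 and Spearman's rho of 0.497, with standard deviations of 0.225 and 0.190. Genes are not independent replicates, the ratios stem from 1 run of 4 libraries, and this relation is what the choice of pairing selects, so it is given as a description.

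**Figure D1:**
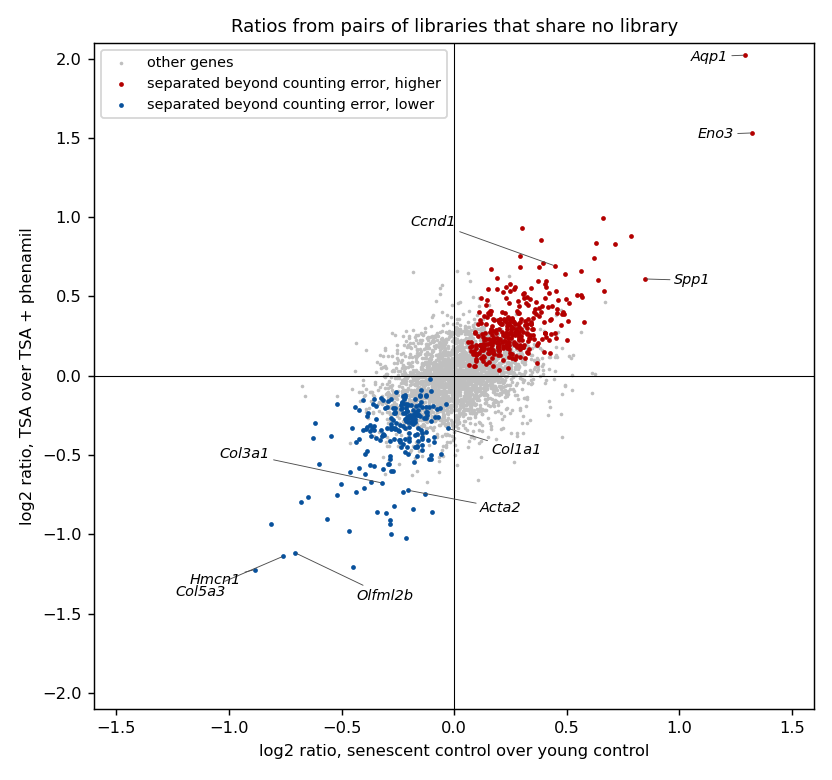
Each point is 1 of 3265 abundant genes, with the log2 ratio of the senescent control over the young control on the horizontal axis and that of TSA over TSA + phenamil on the vertical axis. The 323 higher genes called beyond counting error (red) lie at the upper right and the 213 lower ones (blue) at the lower left by construction of the rule, with Aqp1 at 2.02 and Eno3 at 1.53 highest and Hmcn1 at -1.22 lowest on the vertical axis.

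A size rule asked that all 4 intervals lie beyond 1.5-fold. It was met by 8 genes (0.0654% of those compared), 6 higher (0.0491%) and 2 lower (0.0164%). Aqp1, which encodes a water channel, had 120 CPM in TSA and 80.6 CPM in the senescent control, against 29.6 CPM in TSA + phenamil and 32.9 CPM in the young control. The nearest libraries differed by a ratio of 2.45 (95% counting interval 2.17 to 2.78). The other higher genes were Krt7, Eno3, Cox6b2, Ccbe1 and Fhad1, and the lower genes were Notch3 and the uncharacterised LOC103691419. Just inside the rule lay Ccbe1, with the interval bound nearest to no change at 1.52, and Notch3, at 0.645. Just outside lay Slc16a3 and Vxn, both at 1.49.

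The promoter of Aqp1 is shown because this gene had the interval farthest from no change among genes with at least 100 counts. The 250 bases before its annotated start (RefSeq, build GRCr8, chr4:85812534-85812783, plus strand) hold 1 match to the TATA box letters TATAAA, in capitals, whose first base lies 30 bases before the start. Searched on both strands, the letters occurred in 6.56% of the 9856 promoters found for the genes compared, in windows that also took in 50 bases after the start. They occurred in 9.30% of the 398 found for higher genes and in 7.83% of the 281 found for lower genes. GRCr8 is not the build named in the submitters' processing notes.
Aqp1: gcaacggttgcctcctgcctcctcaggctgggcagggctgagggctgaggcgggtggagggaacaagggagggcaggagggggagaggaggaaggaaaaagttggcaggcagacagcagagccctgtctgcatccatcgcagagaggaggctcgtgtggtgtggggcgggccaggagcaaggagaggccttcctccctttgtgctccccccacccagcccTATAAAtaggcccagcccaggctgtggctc

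Krt7, a keratin of simple epithelia, had 187 counts in TSA and 143 in the senescent control, against 38 in TSA + phenamil and 49 in the young control. On the CPM scale these were 18.9 and 13.0, against 3.62 and 4.42, and the nearest libraries differed 2.94-fold (2.11 to 4.15). It belonged to a list of 12 epithelial-type genes, of which only 6 had at least 40 counts and were compared. Of these 6, 4 were called higher and none lower, where 1.58% and 1.62% of genes at the median of 410 counts were. Krt8, a keratin of the same epithelia and its neighbour on the chromosome, had 20.1 CPM in TSA and 15.4 CPM in the senescent control, against 11.5 CPM in TSA + phenamil and 9.47 CPM in the young control. Lamb3, a chain of the laminin that anchors epithelia, had 17.4 and 10.4 CPM, against 5.90 and 4.87 CPM in the same order of libraries. Areg, which encodes the growth factor amphiregulin, had 8.27 and 5.81 CPM, against 2.19 and 3.52 CPM. In all 4 genes TSA was the highest library, and the median log2 ratio of the 6 members ran from 0.61 to 1.18 over the 4 ratios, where that of all genes ran from -0.001 to 0.005.

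Other genes with low counts met the size rule. Cox6b2, a testis-type subunit of cytochrome c oxidase, had 50 and 53 counts in TSA and the senescent control, against 15 and 19 in TSA + phenamil and the young control. Fhad1, a gene for a protein with a forkhead-associated domain, had 28 and 32 counts, against 6 and 0. LOC103691419 had 2 and 6 counts, against 36 and 31. With totals this low the ratios are imprecise: for Cox6b2 the nearest libraries differed 2.81-fold with an interval of 1.64 to 5.03.

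**Figure D2:**
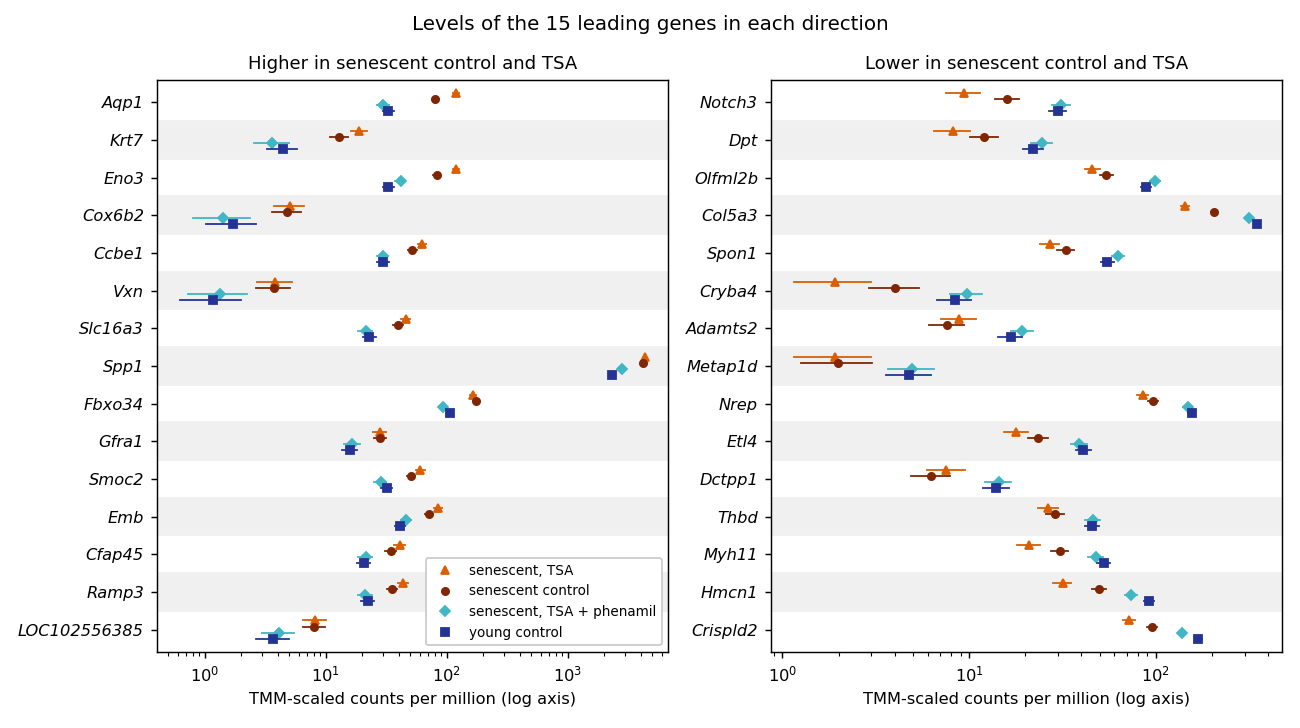
TMM-scaled CPM on a log axis for the 15 genes with at least 100 counts whose intervals lay farthest from no change in each direction, with 1 point per library and 95% Poisson counting intervals as bars. For Aqp1 TSA stood at 120 and the senescent control at 80.6, against 29.6 in TSA + phenamil and 32.9 in the young control, while for Notch3 the order of the pairs was the opposite.

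Spp1 encodes osteopontin, a phosphorylated protein of bone matrix that binds mineral and integrins. It had 4316 CPM in TSA and 4194 CPM in the senescent control, against 2828 CPM in TSA + phenamil and 2333 CPM in the young control. The gap between the pairs was 1.48-fold (1.46 to 1.51), while TSA differed from the senescent control by a ratio of 1.03. Ccnd1, which encodes cyclin D1, had 1472 and 1322 CPM in TSA and the senescent control, against 911 and 970 CPM in TSA + phenamil and the young control. Itgb5, an integrin subunit for vitronectin, had 581 and 563 CPM, against 417 and 409 CPM. In Spp1, Ccnd1 and Itgb5 the libraries within each pair stood closer to each other than to any library of the other pair. Further leading genes were Ccbe1, a secreted protein of lymphatic growth, with a gap of 1.75 (1.52 to 2.01), the F-box gene Fbxo34 with 1.56 (1.45 to 1.69), and Gfra1, the receptor for the neurotrophic factor GDNF, with 1.69 (1.39 to 2.05). Smoc2, a calcium-binding matricellular protein, had a gap of 1.59 (1.39 to 1.82), Emb, a transmembrane partner of lactate transporters, 1.55 (1.38 to 1.74), and Ramp3, a partner of the calcitonin receptor family, 1.6 (1.36 to 1.88).

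In the other direction Notch3 led. Notch3 is a receptor of the Notch pathway, best known from vascular smooth muscle and pericytes. It had 9.38 CPM in TSA and 16 CPM in the senescent control, against 31.0 CPM in TSA + phenamil and 29.8 CPM in the young control. The nearest libraries differed by a ratio of 0.535 (0.443 to 0.645). Of 11 compared genes of the Notch pathway, 2 were called lower and none higher, where 1.62% and 1.58% of genes at the median of 634 counts were. The other was the ligand gene Jag1, with 61.2 and 95.2 CPM in TSA and the senescent control, against 117 and 116 CPM in TSA + phenamil and the young control. For Jag1 the ratio of TSA over the senescent control, 0.643, was farther from no change than the gap of 0.820. Notch1 had 4.44 and 6.54 CPM, against 7.33 and 12.4 CPM, which separated the pairs without excluding counting error. The target gene Hes1 had 124 and 146 CPM, against 118 and 132 CPM, and was not separated. The median log2 ratio of the list ran from -0.49 to -0.05.

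The other leading lower genes included Dpt, Olfml2b, Spon1, Adamts2, Hmcn1 and Crispld2, and outside the matrix Metap1d, Etl4 and Dctpp1, with gaps of 0.418, 0.607 and 0.541. Dpt, which encodes dermatopontin, a small protein of the collagen matrix, had 8.17 CPM in TSA and 12.1 CPM in the senescent control, against 24.5 CPM in TSA + phenamil and 22.1 CPM in the young control. Olfml2b, a secreted protein with an olfactomedin domain, had 45.7 and 54.4 CPM, against 99.1 and 88.7 CPM. Spon1, which encodes F-spondin, had 27.0 and 33.0 CPM, against 62.7 and 55.1 CPM. In each of these 3 genes TSA + phenamil was the highest and TSA the lowest library. Adamts2, the protease that trims the ends of procollagens, had 8.87 and 7.63 CPM, against 19.2 and 16.7 CPM. Hmcn1, a very large extracellular protein, had 31.7 and 49.6 CPM, against 73.9 and 91.6 CPM, and Crispld2, a secreted cysteine-rich protein, had 72.3 and 96.0 CPM, against 138 and 169 CPM. Nrep, named for neuronal regeneration, had a gap of 0.656 (0.606 to 0.709) and Thbd, which encodes the anticoagulant receptor thrombomodulin, one of 0.633 (0.549 to 0.730). Cryba4, a lens crystallin gene whose span overlaps that of Crybb1, had 1.92 and 3.99 CPM, against 9.71 and 8.38 CPM, a gap of 0.476 (0.325 to 0.689).

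A list of collagen genes had 12 of 20 compared members called lower and none higher. Their median total was 20763 counts, and of all genes with 10000 counts or more 10.1% were lower and 18.3% higher. By separation alone, 16 were lower, 1 higher and 3 (Col11a1, Col14a1 and Col5a2) neither. Of all genes with 10000 counts or more, 16.2% were lower and 29.5% higher by that rule. The list did not hold every collagen gene: Col2a1 and Col9a1 were outside it and were not separated. Their log2 ratios of the senescent control over the young control were 0.041 and 0.075. Those of TSA over TSA + phenamil were -0.176 and -0.024. The median log2 ratio of the list ran from -0.47 to -0.19 over the 4 ratios. Of the 12, TSA was the lowest library in 10 and the senescent control in 2, and the young control was the highest in 8 and TSA + phenamil in 4. Col5a3, a chain of the fibril-regulating type V collagen, had 144 CPM in TSA and 205 CPM in the senescent control, against 316 CPM in TSA + phenamil and 347 CPM in the young control. Col3a1, a fibrillar collagen of soft tissues, had 3333 and 3942 CPM, against 5326 and 4922 CPM. The gap was 0.648 (0.614 to 0.684) for Col5a3 and 0.801 (0.791 to 0.811) for Col3a1.

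The chains of type I collagen, the main protein of bone, were also called, with much smaller gaps. Col1a1 had 26684 CPM in TSA and 29864 CPM in the senescent control, against 33576 CPM in TSA + phenamil and 30460 CPM in the young control, a gap of 0.980 (0.976 to 0.985). For this gene the difference within each pair was larger than the gap, and its annotated span overlaps that of Sgca, which was called higher with 6.55 and 7.17 CPM, against 2.57 and 3.43 CPM. Col1a2 had 11478 and 12490 CPM, against 13751 and 14292 CPM, a gap of 0.908 (0.902 to 0.915). At these counts even so small a gap lay outside counting error.

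Col4a1 and Col4a2, whose products form the network of basement membranes, were both called lower and lie head to head. Col4a1 had 126 CPM in TSA and 157 CPM in the senescent control, against 188 CPM in TSA + phenamil and 200.5 CPM in the young control. Col4a2 had 83.8 and 88.9 CPM, against 139 and 120 CPM. Their annotated starts lie 77 bases apart on opposite strands, and the 76 bases between them are shown because both genes of this shared stretch were called (RefSeq, build GRCr8, chr16:84885521-84885596, on the strand of Col4a1, with no part in capitals). The stretch held no match to the letters CCAAT on either strand, which were found in 38.0% of all promoters in their longer windows.
Col4a1 to Col4a2: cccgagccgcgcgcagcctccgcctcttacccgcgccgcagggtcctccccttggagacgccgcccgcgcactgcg

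Genes that process and assemble collagen went both ways. Of 22 compared, 4 were called higher and 4 lower. The medians of this list and of the next 3 lie between 1000 and 10000 counts, where 6.15% of genes were higher and 4.66% lower. Lox, which crosslinks collagen and elastin, had 2152 and 2033 CPM in TSA and the senescent control, against 1530 and 1638 CPM in TSA + phenamil and the young control. Its relative Loxl3, whose span overlaps that of Htra2, had 93.6 and 88.1 CPM, against 64.6 and 55.5 CPM. Adamts2, given above, the procollagen enhancer Pcolce with a gap of 0.884 (0.857 to 0.913) and the collagen chaperone Serpinh1 with 0.908 (0.889 to 0.927) were lower. Of 17 genes of elastic fibres and microfibrils, 5 were called lower and 1 higher. Fbn1, which encodes fibrillin-1, had 445 and 577 CPM, against 714 and 817 CPM, and Ltbp1, which tethers latent TGF-beta to fibrillin, was the higher one at 45.7 and 38.8 CPM, against 29.0 and 27.3 CPM.

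Of 23 matricellular proteins, 5 were called higher and 8 lower, and the median log2 ratio ran from -0.22 to 0.05. Sparc, the matrix protein osteonectin, had 13658 CPM in TSA and 12420 CPM in the senescent control, against 16049 CPM in TSA + phenamil and 14964 CPM in the young control. Postn, which encodes periostin, had 99.6 and 142 CPM, against 178 and 161 CPM. Sparc thus stood apart from Spp1, which was higher in the TSA and senescent control libraries. The list of osteoblast matrix and mineral genes held both, along with the type I collagens, and had 4 of 14 higher and 4 lower. The other higher members were Enpp1, which makes the mineralisation inhibitor pyrophosphate, with a gap of 1.11 (1.07 to 1.16), the phosphate carrier Slc20a1 with 1.14 (1.05 to 1.23) and the proteoglycan gene Fmod with 1.15 (1.04 to 1.26). Of 10 compared transcription factors of osteogenesis none was called, where 3.2% of genes at the median of 955 counts were. Runx2, the master factor of osteoblasts, had 17.2 and 19.6 CPM, against 23.6 and 26.8 CPM, so the pairs were separated but not beyond counting error. Alpl, the alkaline phosphatase of bone, had 15.9 and 19.2 CPM, against 21.6 and 17.5 CPM, and was not separated.

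Contractile genes of smooth muscle, which in stromal cells mark a myofibroblast-like state, were called lower in 7 of 19 and higher in none, at a median of 24159 counts, where 10.1% and 18.3% of genes were. Acta2, smooth muscle actin, had 3070 CPM in TSA and 4508 CPM in the senescent control, against 5062 CPM in TSA + phenamil and 5204 CPM in the young control. Myh11, the smooth muscle myosin heavy chain, had 20.9 and 30.5 CPM, against 47.6 and 52.7 CPM. Actg2, the enteric actin, had 12.5 and 15.3 CPM, against 27.2 and 23.9 CPM. TSA was the lowest library for all 7 called members. For Acta2 the difference within the first pair, a ratio of 0.681 of TSA over the senescent control, was larger than the gap of 0.890, so most of its spread lay between TSA and the other 3 libraries. The list's median log2 ratio ran from -0.14 to -0.04.

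**Figure D3:**
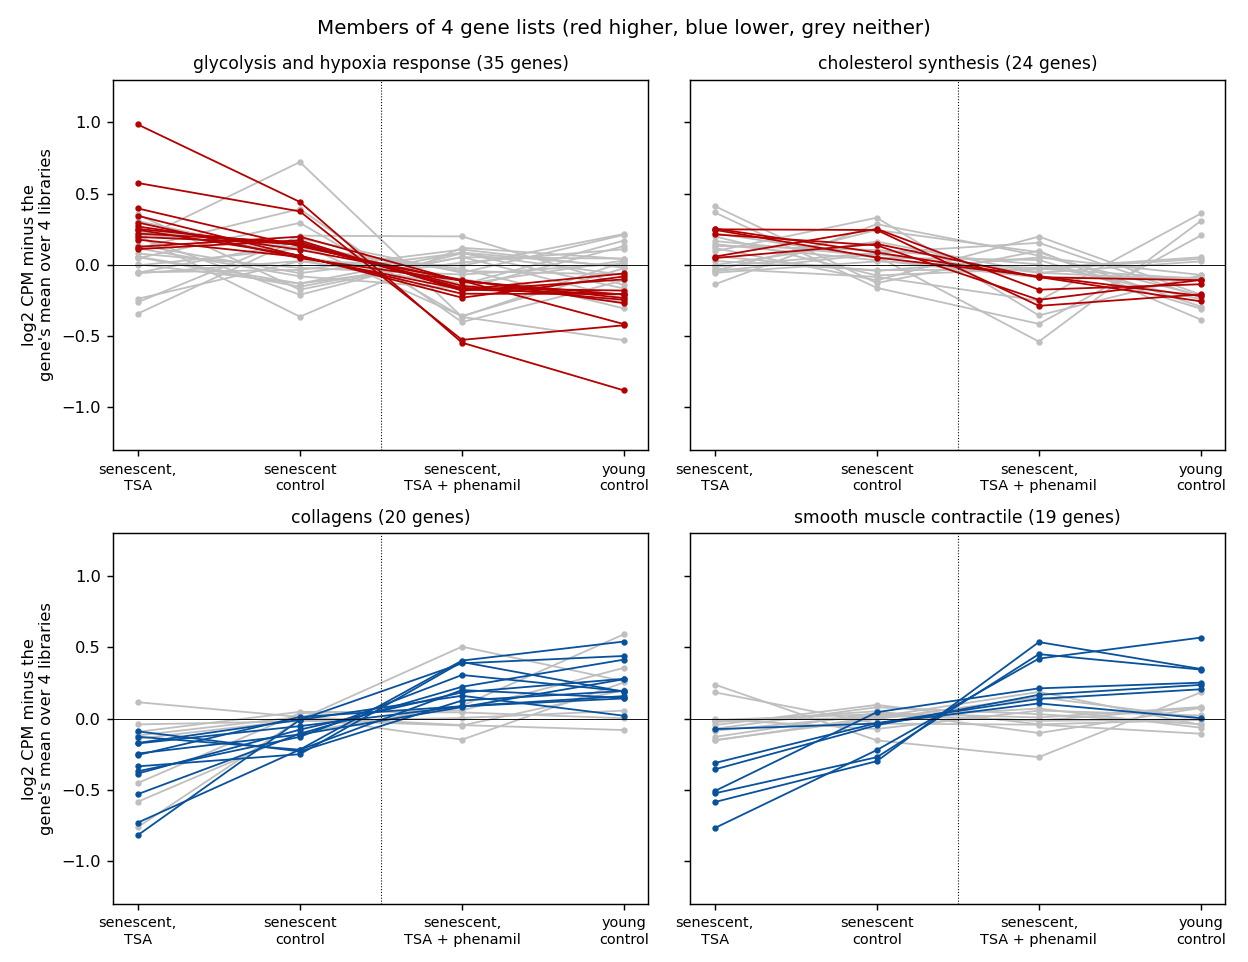
Each line is 1 gene, and each point its log2 CPM in 1 library minus its mean over the 4 libraries, for members of 4 lists that were compared. Red lines mark the 13 glycolysis and hypoxia and 6 cholesterol synthesis genes called higher in TSA and the senescent control, blue lines the 12 collagen and 7 contractile genes called lower, and grey lines the others, many of which overlap between the pairs.

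Glycolysis and hypoxia response genes were called higher in 13 of 35 and lower in none, at a median of 1821 counts, where 6.15% and 4.66% of genes were. Hypoxia-inducible factor switches many of them on when oxygen is low. Eno3, the muscle form of the glycolytic enzyme enolase, had 120 CPM in TSA and 82.3 CPM in the senescent control, against 41.5 CPM in TSA + phenamil and 32.9 CPM in the young control, and its annotated span overlaps that of Spag7. Slc16a3, which exports lactate and whose span overlaps that of Csnk1d, had 45.8 and 39.9 CPM, against 21.3 and 22.9 CPM. Other called members had gaps of 1.08 to 1.26. Ldha, the lactate dehydrogenase subunit of muscle type, had 124 and 103 CPM, against 87.2 and 70.6 CPM. Pgam1, phosphoglycerate mutase, had 425 and 392 CPM, against 322 and 301 CPM, and Car9, a carbonic anhydrase used as a hypoxia marker, had 80.9 and 66.5 CPM, against 55.3 CPM in both TSA + phenamil and the young control. Not all hypoxia genes took part: Vegfa, the angiogenic factor, had 33.2 and 47.8 CPM, against 40.5 and 48.7 CPM. The list's median log2 ratio ran from 0.18 to 0.29.

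The promoters of Ldha and Pgam1 are shown because they hold the core letters of the hypoxia response element, ACGTG, which were searched on both strands. Promoters were found for 30 of the 35 genes of the list, and 18 of them (60%) held the letters. Of all 9856 promoters 25.8% did, as did 33.7% of the 398 found for higher genes. Of 12 called members of the list with a promoter, 7 held them: Car9, Ddit4, Gapdh, Gpi, Higd1a, Ldha and Pgam1. The match is shared by the E-box letters CACGTG, and nothing about a factor's binding follows from it. Printed are the 250 bases before each start, with matches in capitals (RefSeq, build GRCr8, plus strand, chr1:106507842-106508091 for Ldha and chr1:250672902-250673151 for Pgam1). Ldha has 3 matches, 2 of which overlap on opposite strands, and Pgam1 has 1.
Ldha: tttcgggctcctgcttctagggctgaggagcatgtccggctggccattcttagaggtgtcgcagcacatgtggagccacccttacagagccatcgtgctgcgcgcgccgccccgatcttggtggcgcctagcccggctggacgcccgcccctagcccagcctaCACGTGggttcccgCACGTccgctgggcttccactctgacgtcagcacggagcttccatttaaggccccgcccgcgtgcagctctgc
Pgam1: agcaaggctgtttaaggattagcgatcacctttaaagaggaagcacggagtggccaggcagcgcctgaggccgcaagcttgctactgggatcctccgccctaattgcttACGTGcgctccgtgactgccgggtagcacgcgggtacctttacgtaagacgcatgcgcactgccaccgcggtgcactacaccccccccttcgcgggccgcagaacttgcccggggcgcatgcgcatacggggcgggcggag

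Cholesterol synthesis genes were called higher in 6 of 24 and lower in none (6.15% and 4.66% of genes at the median of 1852 counts), with a median log2 ratio of 0.14 to 0.26. Acat2, which condenses acetyl-CoA at the start of the pathway, had 85.0 CPM in TSA and 84.7 CPM in the senescent control, against 58.6 CPM in TSA + phenamil and 61.9 CPM in the young control. The regulator Insig1 had a gap of 1.18 (1.06 to 1.32). Hmgcs1, the enzyme before the rate-limiting step, had 109 and 107 CPM, against 99.9 and 84.4 CPM, which separated the pairs without passing counting error. The stearoyl-CoA desaturase genes Scd and Scd2, neighbours that are similar in sequence and whose reads may be hard to assign, had gaps of 1.47 (1.27 to 1.71) and 1.10 (1.03 to 1.18).

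Genes of the nuclear respiratory chain were called higher in 20 of 86 and lower in 1, Ndufv2 (6.15% and 4.66% of genes at the median of 5792 counts), with a median log2 ratio of 0.06 to 0.26. Apart from Cox6b2, examples were the complex I subunits Ndufb2, with 280 and 268 CPM in TSA and the senescent control, against 219 and 218 CPM in TSA + phenamil and the young control, and Ndufb6, with a gap of 1.22 (1.12 to 1.33). Mitochondrially encoded genes of the same chain did not follow: 1 of 13 was called higher and 2 lower, where 18.3% and 10.1% of genes with 10000 counts or more were. COX1 had 8423 and 8502 CPM, against 8231 and 7399 CPM, a gap of 1.02, while ND6, the only messenger on the light strand, had 28.7 and 35.1 CPM, against 44.9 and 49.1 CPM. Ribosomal protein genes were called higher in 16 of 87 (18.4%) and lower in none, with gaps of 1.04 to 1.23. Their median total was 33931 counts, and of all genes with 10000 counts or more 18.3% were higher, so the count is near that of equally abundant genes. Their median log2 ratio changed sign with the ratio, from -0.09 for the senescent control over TSA + phenamil to 0.29 for TSA over the young control, and many have near-identical copies that share reads. Ribosomal protein genes took 8.29% of counts in TSA, 7.4% in the senescent control, 7.60% in TSA + phenamil and 6.98% in the young control.

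Signals of the BMP and TGF-beta pathway were called lower in 7 of 29 and higher in 2 (4.66% and 6.15% of genes at the median of 1802 counts), with a median log2 ratio of -0.20 to -0.09. Bmp2, a bone-inducing ligand, had 23.0 CPM in TSA and 25.9 CPM in the senescent control, against 37.1 CPM in TSA + phenamil and 37.5 CPM in the young control. The ubiquitin ligase Smurf1, which degrades BMP Smads, had 21.2 and 22.9 CPM, against 28.0 and 29.0 CPM, and the signal carrier Smad1 had 16.9 and 18.0 CPM, against 21.9 and 23.9 CPM. Of 14 BMP target and feedback genes, 3 were called higher and none lower, where 1.58% and 1.62% of genes at the median of 651 counts were. These were the inhibitors of differentiation Id1, at 124 and 88.0 CPM, against 73.2 and 71.9 CPM, and Id3, with a gap of 1.07 (1.01 to 1.14), and the antiproliferative gene Tob1, with 1.3 (1.07 to 1.58). The list was mixed: by separation alone, 6 of its genes were higher and 4 lower. Its median log2 ratio changed sign, from -0.08 for the senescent control over the young control to 0.29 for TSA over TSA + phenamil. Fst, which encodes the activin and BMP antagonist follistatin, had 176 and 124 CPM, against 105 and 80.7 CPM. Bmp4 had 306 and 277 CPM, against 352 and 207 CPM, and Trib3 had 158 and 176 CPM, against 158 and 192 CPM. Neither was separated: Bmp4 was highest in TSA + phenamil and lowest in the young control, and Trib3 was tied in TSA and TSA + phenamil.

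A list of 18 sodium channels, exchangers and their partners was wider than the epithelial sodium channels that phenamil blocks. Only 8 of the 18 had enough counts to be compared. Of these, 4 were called higher and none lower, where 6.15% and 4.66% of genes at the median of 4169 counts were. Among them were the pump subunit Atp1b1, with a gap of 1.19 (1.1 to 1.28), the pump regulator Fxyd5, at 108 and 98.4 CPM in TSA and the senescent control, against 74.9 and 73.5 CPM in TSA + phenamil and the young control, and the cation channel Pkd2, the chromosomal neighbour of Spp1, with 1.2 (1.1 to 1.31).

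Of 18 cell cycle inhibitors and senescence genes, 3 were higher and none lower (16.7% called, at a median of 1758 counts, where 10.8% of genes were): Ccnd1, Hmga1, a chromatin protein, with a gap of 1.27 (1.11 to 1.45), and Cdkn2b, the inhibitor p15, with 142 and 129 CPM in TSA and the senescent control, against 105 and 99.7 CPM in TSA + phenamil and the young control. By separation alone, 6 of the 18 were higher and 4 lower, and the list's median log2 ratio ran from -0.02 to 0.13. Cdkn1a, the inhibitor p21, had 225 and 235 CPM, against 203 and 237 CPM. Cdkn2a had 7.66 and 5.08 CPM, against 7.05 and 6.13 CPM, and neither gene was separated. The nuclear lamin gene Lmnb1 had 32.3 and 32.9 CPM, against 33.6 and 36.2 CPM, separated by a ratio of 0.978 (0.842 to 1.14). Of 30 genes of the senescence-associated secretory list, 5 were higher, among them Serpine2, a protease inhibitor, with 1.27 (1.22 to 1.33), and Csf1, the macrophage growth factor, with 1.2 (1.1 to 1.3), and 2 were lower (23.3% called in all, at a median of 1407 counts, where 10.8% of genes were). The lower genes were Plat, with 0.766 (0.658 to 0.891), and Igfbp6, with 0.771 (0.661 to 0.899). By separation alone, 8 of the 30 were higher and 7 lower, and the list's median log2 ratio ran from -0.04 to 0.02. Il6 had 3.13 and 4.81 CPM, against 3.90 and 3.97 CPM, and was not separated. Of 40 mitosis genes, Top2a and Nusap1 were called lower and none higher (1.62% and 1.58% of genes at the median of 791 counts), and the proliferation marker Mki67, at 27.8 and 35.4 CPM, against 32.7 and 38.6 CPM, was not separated. The mitosis list did not lean lower as a whole. By separation alone, 10 of its genes were higher and 6 lower, and its median log2 ratio ran from 0.001 to 0.08.

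A list of histone deacetylases, acetyltransferases and corepressors, some of which are targets of TSA, had 4 of 24 called lower and none higher (4.66% and 6.15% of genes at its median of 1158 counts), with a median log2 ratio of -0.21 to -0.03. Hdac7 had 77.3 CPM in TSA and 77.4 CPM in the senescent control, against 100.5 CPM in TSA + phenamil and 100.0 CPM in the young control. Hdac2, another deacetylase, had a gap of 0.904. The acetyltransferase gene Crebbp had a gap of 0.851 (0.793 to 0.913), and the corepressor Ncor1 one of 0.873 (0.814 to 0.935). Hdac1 had 112 and 99.8 CPM, against 93.6 and 87.7 CPM, and the linker histone H1f0 had 138 and 126 CPM, against 129 and 118 CPM. Neither of these was called, and H1f0 was not separated. No member was called among 18 HOX genes and 14 interferon response genes, where 3.2% of genes at their medians of 456.5 and 464.5 counts were. None was called among 10 metallothionein and zinc genes either, where 10.8% of genes at the median of 1040.5 counts were. At these shares, lists this small may hold no called gene, so little follows from the absence.

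**Figure D4:**
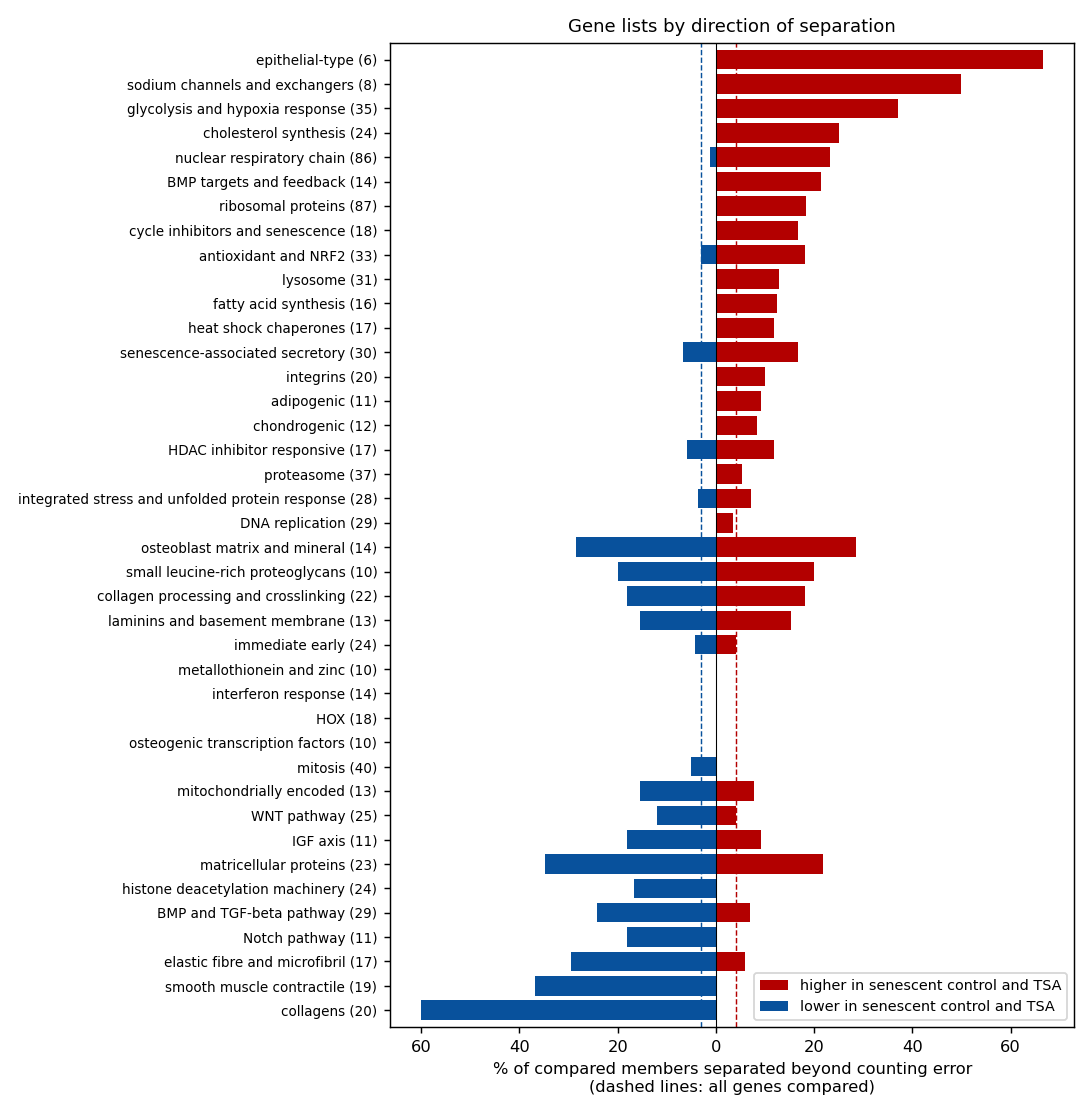
Bars give the share of the compared members of each of 40 gene lists (number in parentheses) called higher (red, to the right) or lower (blue, to the left) in TSA and the senescent control beyond counting error, with dashed lines for all genes compared, at 4.02% and 3.07%. These lines are not matched for counts, and the share called rose with counts. The collagens stand at the lower end with 12 of 20 lower, and the epithelial-type genes at the upper end with 4 of 6 higher.

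Of the 14 stromal markers 3 were called (21.4%, at a median of 1579 counts, where 10.8% of genes were): Cd9 was higher and Lepr and Pdgfrb were lower. Pdgfrb, a receptor of stromal cells and pericytes, had 25.7 CPM in TSA and 38.8 CPM in the senescent control, against 46.9 CPM in TSA + phenamil and 46.5 CPM in the young control. Its ratio of TSA over the senescent control, 0.663, was farther from no change than the gap of 0.833. Lepr, the leptin receptor of marrow stroma, had 10 and 24 counts, against 43 and 44 counts, and its span overlaps that of Leprot. In such bulk libraries fewer cells of a type and less RNA per cell cannot be told apart. The 40 lists share genes, among them Spp1, Sparc, Col1a1 and Lamb3, so their counts are not independent. Together they covered 890 compared genes, of which 117 were called higher and 67 lower, and 682 of the 866 called genes were in no list.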

How the data were processed

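Per the labels, RNA was extracted with TRIzol and 3′ end libraries were made with the QuantSeq FWD kit and read on a NextSeq 500 in single 100-base reads. The submitters' processing notes name the build mRatBN7.2, HTSeq 2.0.2 and STAR 2.7.10b. The sources used here do not state the annotation, the use of strand or any molecular identifiers. The authors deposited whole-number read counts per gene for 4 libraries and, beside them, log2 values. The deposited log2 values equal log2 of the count over a library factor, plus 1, to within 0.000533. There were 0 columns of other samples.

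Counts were used as deposited, scaled with TMM factors (a trimmed mean of log ratios) from edgeR 4.0.16 in R 4.3.3, and set to a common library size (CPM). Other steps ran in Python 3.11.15 with numpy 2.4.6, scipy 1.17.1 and pandas 2.3.3. A gene was compared when its counts summed to 40 or more. Ratios got exact 95% conditional (Clopper-Pearson) counting intervals. These cover counting error only, and without molecular identifiers 2 reads may stem from 1 molecule. A count of 0 allows up to 3 counts, or 0.270 to 0.302 CPM. List medians used a prior count of 0.5. With 1 library per condition and a pairing chosen from the values, no p-value was computed. The code was tested on simulated data.

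Genes were named by rule: the 15 in each direction with at least 100 counts whose intervals lay farthest from no change, up to 3 per list and direction, 21 genes of prior interest, and those at the threshold of the size rule. Further list members and genes outside the lists were chosen after their values were seen. The pairing, its members and the gene lists were chosen with earlier results of these data known. Promoters, overlaps of annotated spans and gene order came from RefSeq tables of GRCr8, another build than that of the files, and were matched by symbol or gene ID. Promoters were found for 80.6% of genes compared. Alternatives covered the scaling (total counts, the deposited log2 values, size factors of DESeq2 1.42.0, and TMM leaving out ribosomal protein and mitochondrial genes), the count filter, the interval level, the fold of the size rule and leaving out each library. Values of some list members are not reported here.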

Additional observations from a re-analysis of the deposited data

How the results depend on the processing

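Main values are 5000 separated genes, 866 beyond counting error (491 higher, 375 lower) and 8 past the size rule. DESeq2 size factors gave 4992, 866 and 8, and scaling by total counts gave 4943, 850 and 9, with 518 higher and 332 lower. With 99% intervals 529 genes were called (304 higher, 225 lower). The size rule was met by 5 genes at 200 counts or more, by 85 at 1.2-fold, by 4 at 2-fold, and by 242 when the ratio alone had to pass. Leaving out a library sets 1 library against 2, which eases the rule by construction. Separated genes then numbered 8210 to 8943 (4148 to 4529 higher, 4062 to 4425 lower), those beyond counting error 1783 to 2672 (947 to 1413 higher, 836 to 1259 lower), those past the size rule 27 to 117, and called members of the lists 265 to 394, against 184. The lowest of these counts of called genes came without TSA (1783 and 27), and without the young control they were 1849 and 37. Without the senescent control they were 2565 and 117, and without TSA + phenamil 2672 and 64. All 129 named genes that were called kept their direction of separation with DESeq2 factors, with TMM without mitochondrial and ribosomal protein genes and with the deposited log2 values. With total counts 128 did, and Ccn2 was not separated. No paired analysis was possible because each condition has 1 library and no test was made. Genes with few counts were seldom called, which limits what these depths can show for them, and the spread between cultures is unknown.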

Other observations

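Most called genes stood outside the gene lists, and those named here were chosen after their values were seen. Pdpn, which encodes podoplanin of osteocytes and lymphatic vessels, had 221 CPM in TSA and 179 CPM in the senescent control, against 135 CPM in TSA + phenamil and 136 CPM in the young control. Slc29a1, a nucleoside carrier, had 56.8 and 42.7 CPM, against 24.4 and 29.7 CPM, and Slc12a2, a sodium, potassium and chloride cotransporter, had 157 and 148 CPM, against 105 and 112 CPM. Penk, the precursor of enkephalin peptides, had 145 and 106 CPM, against 80.0 and 81.0 CPM. In each of these 4 genes both TSA and the senescent control lay above the other libraries, with TSA highest. Anxa3, a membrane-binding annexin, had 138 and 131 CPM, against 90.6 and 84.2 CPM.

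Ebf1, a factor of stromal and B cells, had 108 CPM in TSA and 119 CPM in the senescent control, against 152 CPM in TSA + phenamil and 157 CPM in the young control. Sox4, a factor of progenitor cells, had 245 and 281 CPM, against 359 and 344 CPM, and Atf5, a stress-responsive factor, had 205 and 212 CPM, against 307 and 284 CPM. The matrix gene Abi3bp had 90.9 and 112 CPM, against 155 and 176 CPM. Of 74 mitochondrial ribosomal protein genes compared, 4 (Mrpl28, Mrpl43, Mrps14 and Mrps24) were called higher and none lower. Of 187 solute carriers 11 were higher and 5 lower, and of 263 zinc finger genes named Zfp 1 was higher and 3 were lower, where 4.02% and 3.07% of all genes were. These shares of all genes are not matched for counts. By separation alone, 32 mitochondrial ribosomal protein genes were higher and 2 lower. The solute carriers had 50 higher and 32 lower, and the Zfp genes 36 higher and 63 lower, where 20.7% and 20.2% of all genes were. In GRCr8 gene order, 11985 neighbouring pairs were both compared and 90 had both genes called: 27 pairs both higher, 22 both lower and 41 in opposite directions. Of all genes compared 7.08% were called. The share of pairs to be found without any link between neighbours was not worked out, so no link follows from these counts. Krt7 with Krt8 and Fmod with Prelp were both higher, Col6a1 with Col6a2 both lower, and Enpp1 was higher beside Ccn2, which was lower.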
